A study of Homo sapiens with 4 samples.

Results

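AP-1 is a transcription factor built as a dimer: a JUN protein pairs with a FOS protein or with another JUN protein through a leucine zipper, and the pair binds short palindromic DNA sites. Some of these genes, such as FOS and JUN themselves, are classic immediate early genes. They are switched on within minutes of a growth factor or stress signal through the ERK, JNK and p38 MAP kinases. In colon cancer cells AP-1 is best known as an output of ERK signalling that drives invasion and growth genes. The small MAF proteins carry the same kind of zipper but no activation domain; as pairs with themselves they repress, and as partners of NRF2 and its relatives they activate antioxidant genes. The 9 genes described here are the FOS genes FOS, FOSB, FOSL1 and FOSL2, the JUN genes JUN, JUNB and JUND, and the small MAF genes MAFF and MAFK. They were picked by name, as the rows of the deposited gene table whose Ensembl identifier maps to one of these symbols, and all 9 were found among its 20263 genes.

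The cells were HCT116, an established human colon cancer line. One group was treated with 7A, which the series title describes as a derivative of neratinib, an irreversible inhibitor of ERBB receptor kinases; its dose is not stated in the labels. The other group received DMSO, and both were kept for 24 h. RNA from 2 libraries per group was sequenced, and nothing states that the libraries of a group came from separate cultures, so a p-value here reflects the spread among these libraries alone, and that spread may be technical.

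Library totals were 49924044 and 61605005 counts with 7A and 31120459 and 29769568 with DMSO, and the gene with the fewest counts among the 9 still had 164 in its lowest library. Levels are counts per 1000000 library counts after TMM scaling (CPM). The epithelial markers EPCAM, CDH1, KRT8, KRT18, KRT19 and CDX2 were detected, while CDX1 had no count and VIL1 at most 4; the 8 epithelial markers summed to 6901 and 7240 CPM with 7A and to 4118 and 3666 with DMSO. The 5 leukocyte markers summed to between 0.337 and 0.498 CPM in every library. The fibroblast markers COL1A2, DCN and LUM had no count, and COL1A1 gave 33.7 and 38.6 CPM with 7A against 57.6 and 54.7 with DMSO. The 4 endothelial markers summed to 0.281 and 0.308 CPM with 7A and to 1.44 and 1.32 with DMSO. Mitochondrial genes took 3.04% and 4.07% of counts with 7A, against 6.59% and 7.73% with DMSO, without overlap. The part of these differences in the results below was not tested.

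Promoter sequences are shown first because 6 of the 7 genes for which RefSeq windows were at hand share one kind of site. The windows (GRCh38.p14) ran from 250 bases before the RefSeq start to 50 after it, and the site lay close to that start. Here the start always means the RefSeq start, which can differ from the first base of the gene in the GENCODE annotation. The GENCODE coordinates are given with each gene further below. By those coordinates the bases printed for JUN, FOSL2 and MAFF lie wholly inside the gene. FOSL1 and MAFK had no entry. The motifs searched, on both strands, were TGACGT (the core of a cAMP response element), TGACNTCA, TGANTCA and the CArG box bound by SRF, and on the gene strand TATAAA. N was any base, and the shares over all windows count every N. TGACNTCA is the full palindrome, which overlaps TGACGT, where N is G, and the JUN variant where N is A. TGANTCA is the classic AP-1 site where N is C or G. The motifs TGACGT and TGACNTCA were chosen with the windows in view. Each sequence below is the 130 bases that end just before the RefSeq start, 5′ to 3′ on the gene strand, with TGACGT or TGACNTCA on either strand in capitals.
JUN (chr1:58784048-58784177, minus strand): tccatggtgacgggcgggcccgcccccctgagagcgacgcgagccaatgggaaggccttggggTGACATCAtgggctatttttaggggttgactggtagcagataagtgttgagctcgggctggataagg
FOS (chr14:75278698-75278827, plus strand): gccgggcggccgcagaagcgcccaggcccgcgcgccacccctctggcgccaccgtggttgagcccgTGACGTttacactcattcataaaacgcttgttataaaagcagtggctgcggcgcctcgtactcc
FOSB (chr19:45467866-45467995, plus strand): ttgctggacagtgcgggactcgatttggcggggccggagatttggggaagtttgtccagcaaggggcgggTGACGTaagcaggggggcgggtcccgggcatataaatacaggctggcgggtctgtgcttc
MAFF (chr22:38201864-38201993, plus strand): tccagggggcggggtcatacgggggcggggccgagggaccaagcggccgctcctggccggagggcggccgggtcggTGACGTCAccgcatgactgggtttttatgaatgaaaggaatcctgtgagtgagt
JUND (chr19:18281623-18281752, minus strand): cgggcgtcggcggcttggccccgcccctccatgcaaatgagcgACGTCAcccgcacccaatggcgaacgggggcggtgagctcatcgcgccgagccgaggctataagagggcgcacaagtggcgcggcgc
FOSL2 (chr2:28392728-28392857, plus strand): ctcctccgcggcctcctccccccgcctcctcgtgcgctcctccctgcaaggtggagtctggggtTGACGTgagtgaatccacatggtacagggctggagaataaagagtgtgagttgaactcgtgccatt
JUNB (chr19:12791356-12791485, plus strand): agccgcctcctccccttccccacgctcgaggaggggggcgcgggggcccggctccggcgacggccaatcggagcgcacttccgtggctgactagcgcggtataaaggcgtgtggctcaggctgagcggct
The first base of the site lay 67 bases before the start in JUN, 64 in FOS, 60 in FOSB, 54 in MAFF, 87 in JUND and 66 in FOSL2; JUNB had neither motif, and JUND had a second site, a full palindrome, 200 bases before its start. Of all 35116 windows, 7.42% had TGACNTCA or TGACGT within the 100 bases before the start. FOS, JUNB and FOSB also had TATAAA in this stretch, against 3.51% of all windows. The motif TGANTCA occurred in 1 of the 7 genes, FOSL2, as TGACTCA just after the start, and in 7.71% of all windows. No CArG box fell in the windows of the 7 genes, against 1.29% of all windows. Sequence farther than 250 bases before the start was not searched, so sites there would be missed. For JUN, FOSL2 and MAFF the whole window lies inside the GENCODE gene, so no base before the annotated gene was searched. A second MAFF window had none of these motifs. A match of letters is a description of the window and not evidence of binding.

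With 7A, 8 of the 9 genes rose, against 23.9% of the 14026 genes tested, and 1, FOSL2, fell, against 24.6%; in all, 48.4% of tested genes changed. Changes are called at an adjusted p under 0.05 in edgeR's quasi-likelihood test. The 9 genes had a median log2 fold change of 1.18, 7A over DMSO, against -0.03 for all tested genes, and 6 of them at least doubled (called, with a log2 fold change of 1 or more), as did 7.11% of tested genes. In all 9 the 2 groups of libraries did not overlap, 8 upwards, against 38.2% of tested genes, and 1 downwards, against 40.2%. Scaling moves all values together: library totals alone took the median of all genes to -0.29 and upper-quartile scaling to -0.14. Under both every one of the 9 kept its direction, with medians of 0.91 and 1.07 over the 9. MAFK lost its call under both (edgeR adjusted p 0.439 and 0.112), which left 7 genes called higher. FOS and JUNB came below a log2 fold change of 1 with library totals alone (0.85 and 0.91). They also did with GC content and exon length corrected (0.89 and 0.71), where the median of the 9 was 0.89. These are relative amounts in bulk RNA, so a change in the share of cells that express a gene and a change in RNA per cell cannot be told apart.

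**Figure D1:**
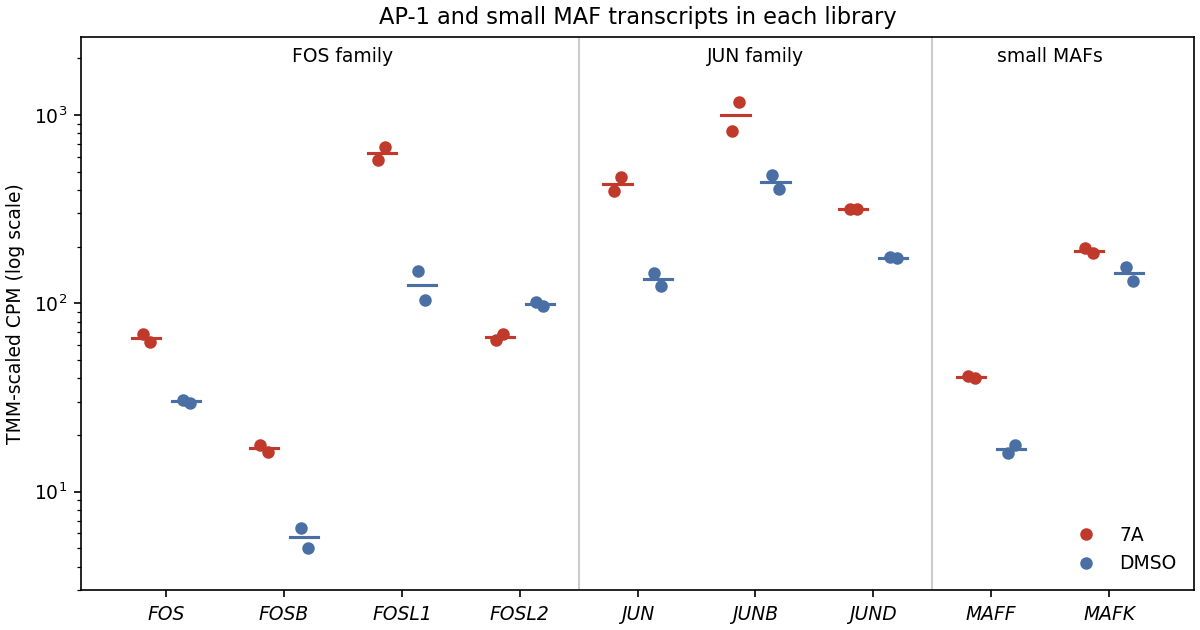
TMM-scaled CPM (log axis) of the 9 genes in each library, with 7A in red left of DMSO in blue; points are single libraries and bars the means of 2. Both 7A points lie above both DMSO points for 8 genes and below them for FOSL2.

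Among the FOS genes, FOSL1 moved most. FOSL1 (ENSG00000175592, chromosome 11, 65892049 to 65900573 in GRCh38, minus strand) encodes FRA-1, a FOS protein with no strong activation domain that is induced by sustained ERK signalling and linked to invasion. It had 573 and 678 CPM with 7A, against 148 and 103 CPM with DMSO. The lower 7A library was 3.88 times the higher DMSO library, and the log2 fold change was 2.32 ± 0.20 (SE; edgeR adjusted p 0.00084), a 4.98-fold difference that ranked 77 among rises in 14026 genes.

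FOS (ENSG00000170345, chromosome 14, 75278774 to 75282230, plus strand), the founding member and the most transient of the family, had 68.3 and 62.5 CPM with 7A, against 30.8 and 29.7 CPM with DMSO. Each pair of libraries was tight, and the 2 groups lay about a doubling apart (log2 fold change 1.11 ± 0.14; edgeR adjusted p 0.00132). FOSB (ENSG00000125740, chromosome 19, 45467995 to 45475179, plus strand), whose protein has a long form and a short form, ΔFOSB, that cannot be separated in gene counts, had the lowest level of the 9 per length of transcript. It had 17.7 and 16.2 CPM with 7A, against 6.45 and 5.02 CPM with DMSO, and rose by 1.56 ± 0.20 (edgeR adjusted p 0.00136). FOSB overlaps ERCC1 on the opposite strand, which had at least 3521 counts in every library and a log2 fold change of 0.61; no source used here says whether the counting used strand, and without strand the reads of the overlap cannot be told apart.

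FOSL2 (ENSG00000075426, chromosome 2, 28392448 to 28417312, plus strand), which encodes FRA-2, went the other way. It had 63.8 and 68.8 CPM with 7A, against 101 and 96.2 CPM with DMSO. Both 7A libraries were lower than both DMSO libraries, by a factor of 1.49 between group estimates (log2 fold change -0.57 ± 0.13, 95% interval -0.87 to -0.27; edgeR adjusted p 0.00968). The call was lost without DMSO replicate 1 (edgeR adjusted p 0.0681) or DMSO replicate 2 (0.0522), with the value at -0.54 and -0.61, and against a fold of 1.5 it did not pass (0.582).

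The 3 JUN genes, all intronless, rose together but by different amounts. JUN (ENSG00000177606, chromosome 1, 58780788 to 58784327, minus strand), the JNK substrate that gives the family its name and feeds back on its own promoter, had 394 and 469 CPM with 7A, against 145 and 123 CPM with DMSO. Every 7A library held at least 2.72 times the CPM of any DMSO library, and the log2 fold change was 1.69 ± 0.15, a 3.22-fold difference (edgeR adjusted p 0.000692). JUNB (ENSG00000171223, chromosome 19, 12791496 to 12793315, plus strand), a weaker activator that can restrain JUN, had the highest level of the 9 per length of transcript. It had 826 and 1174 CPM with 7A, against 478 and 406 CPM with DMSO, the widest spread between 7A libraries among the JUN genes, and rose by 1.18 ± 0.20 (edgeR adjusted p 0.00413).

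JUND (ENSG00000130522, chromosome 19, 18279760 to 18281622, minus strand) encodes the JUN protein that resting cells keep at a steady level. Its libraries were the tightest of the 9, with 317 and 316 CPM with 7A, against 176 and 174 CPM with DMSO. The log2 fold change was 0.86 ± 0.11, the smallest among the JUN genes (edgeR adjusted p 0.00147). JUND and JUNB have the highest GC content of the 9, at 69.7% and 64.9% of the longest transcript, against a median of 49.4% for tested genes. With GC and exon length corrected in each library, JUND rose by 0.42 (edgeR adjusted p 0.021) and JUNB by 0.71 (0.00865), so both kept their call with smaller values. JUNB overlaps HOOK2 on the opposite strand, which fitted at -0.32.

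Of the small MAF genes, MAFF rose clearly and MAFK by little. MAFF (ENSG00000185022, chromosome 22, 38200767 to 38216511, plus strand), the stress-inducible small MAF, had 41.3 and 40.1 CPM with 7A, against 16.1 and 17.7 CPM with DMSO. That is a log2 fold change of 1.27 ± 0.15, or 2.41-fold (edgeR adjusted p 0.00109). MAFK (ENSG00000198517, chromosome 7, 1530714 to 1543043, plus strand) had 196 and 184 CPM with 7A, against 156 and 132 CPM with DMSO. The groups did not overlap, but the log2 fold change of 0.40 ± 0.13 (95% interval 0.09 to 0.71) sat at the edge of the threshold (edgeR adjusted p 0.0415). The MAFK call was lost in 13 of 19 alternatives, among them each library left out (edgeR adjusted p 0.0988 and 0.0772 without 7A replicate 1 and 2, 0.0571 and 0.268 without DMSO replicate 1 and 2), library totals alone (0.439), the replicate block (0.0586) and the correction for GC and length, which gave 0.12 (0.413). MAFF and MAFK overlap PLA2G6 and TMEM184A on the opposite strand, which fitted at 0.02 and 0.28.

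MAFG, which encodes the remaining small MAF and is not among the 9, could not be placed. It had 181 and 177 CPM with 7A, against 197 and 39.5 CPM with DMSO, so the 2 DMSO libraries disagreed by more than any difference between the groups. The fit gave 0.60 ± 0.98 (edgeR adjusted p 0.662), 2.18 without DMSO replicate 1 (0.00124) and -0.14 without DMSO replicate 2 (0.585).

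**Figure D2:**
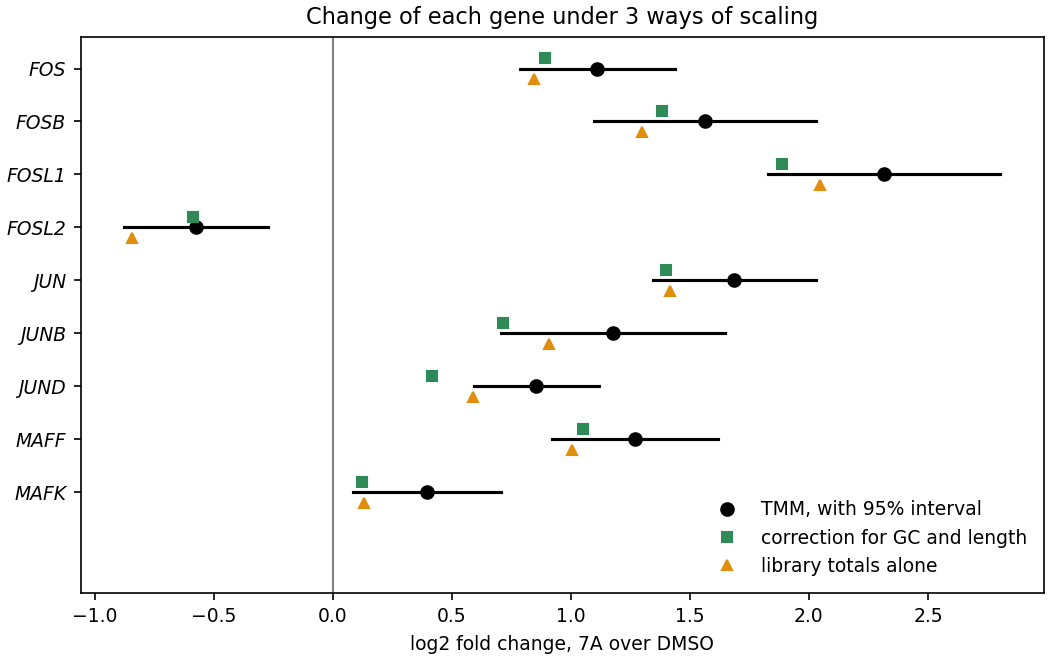
Log2 fold change of each gene, 7A over DMSO, with TMM scaling (black, 95% interval), with a correction for GC and exon length (green squares) and with library totals alone (orange triangles). No gene crosses 0 under the 3 ways of scaling, JUNB, JUND and FOSL1 move most with the correction, and FOSL2 is lower with 7A in each.

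Per kilobase of annotated exon, the make-up of the FOS genes shifted toward FOSL1, while the JUN genes kept JUNB in front. FOSL1 held 90.2% and 91.9% of the summed FOS-gene level in the 7A libraries, against 76.0% and 70.0% in the DMSO libraries. FOSL2 held 2.64% and 2.46% with 7A and 13.7% and 17.1% with DMSO. FOS itself held 6.26% and 4.94% with 7A against 9.22% and 11.7% with DMSO, although its own level was higher with 7A. None of these shares overlapped between groups; an exact permutation test of 2 libraries against 2 cannot go below p = 0.333, so the shares are given without one.

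JUNB held 61.7% and 68.1% of the summed JUN-gene level with 7A and 66.0% and 63.5% with DMSO, which overlap. JUN held 15.1% and 14.0% with 7A against 10.3% and 9.92% with DMSO. JUND held 23.2% and 17.9% with 7A against 23.8% and 26.5% with DMSO. The summed level of the FOS genes was 337 and 391 CPM per kilobase with 7A and 103 and 78.4 with DMSO, a ratio of 4.01 between group means. The JUN genes summed to 735 and 947 CPM per kilobase with 7A and to 398 and 351 with DMSO, a ratio of 2.25. In CPM per kilobase of merged exons, the JUN genes therefore exceeded the FOS genes by 2.18 and 2.42 to 1 in the 7A libraries. In the DMSO libraries the ratios were 3.86 and 4.48 to 1. With the longest transcript as the length, the FOS genes summed to 389 and 450 CPM per kilobase with 7A. With DMSO they summed to 120 and 91.4. The JUN-gene sums did not change with this length, so the ratios to FOS were smaller in every library.

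**Figure D3:**
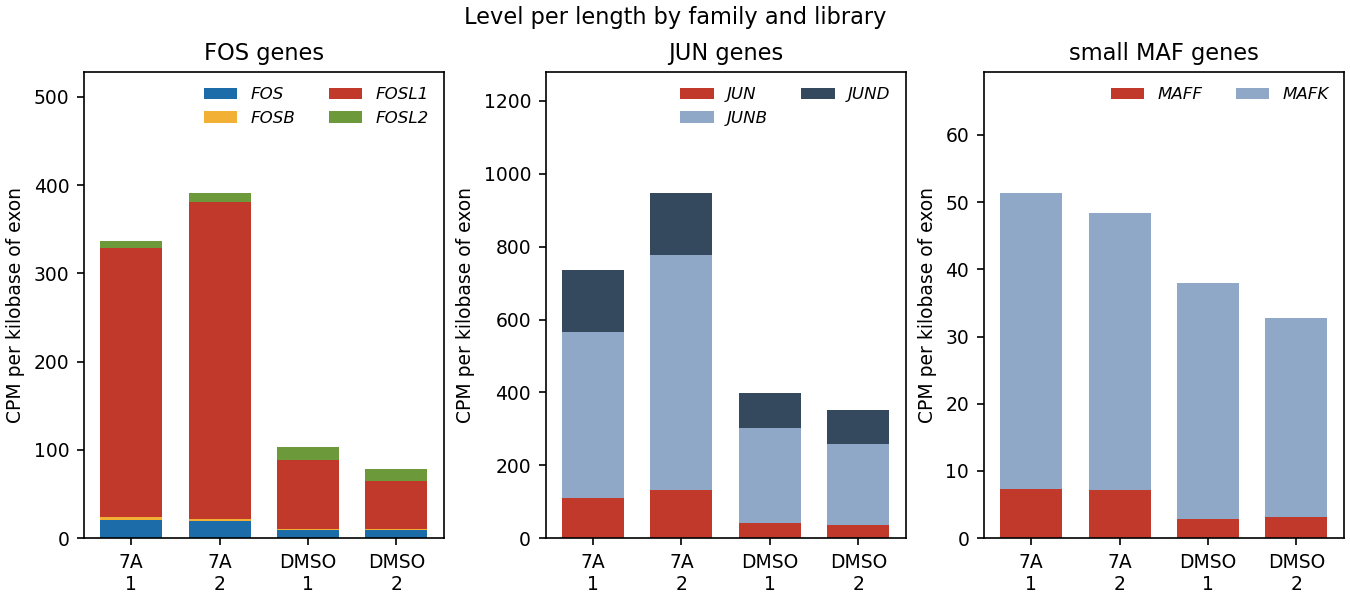
Level per length (CPM per kilobase of merged exons) in each library, stacked by gene, for the FOS, JUN and small MAF genes, 7A left of DMSO; each panel has its own axis. FOSL1 fills most of the FOS column in all 4 libraries with 90.2% and 91.9% of it with 7A, and JUNB is the largest part of each JUN column.

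Across families the order per length with 7A was JUNB (550 ± 135 CPM per kilobase, SD, n = 2), FOSL1 (331 ± 39.1), JUND (170 ± 0.536), JUN (122 ± 15.0), MAFK (42.6 ± 1.95), FOS (20.2 ± 1.26), FOSL2 (9.26 ± 0.497), MAFF (7.25 ± 0.152) and FOSB (3.05 ± 0.197). In DMSO it was JUNB (243 ± 28.1), JUND (93.9 ± 1.02), FOSL1 (66.6 ± 16.6), JUN (37.8 ± 4.26), MAFK (32.4 ± 3.88), FOSL2 (13.8 ± 0.489), FOS (9.35 ± 0.239), MAFF (3.01 ± 0.205) and FOSB (1.03 ± 0.182). Neighbours in each order did not overlap between libraries, except JUN and MAFK in DMSO. FOSL1 thus stood above JUND with 7A and below it in DMSO, and FOS above FOSL2 with 7A and below it in DMSO. With the longest transcript as the length, MAFF at 12.4 CPM per kilobase also stood above FOSL2 at 9.88 with 7A, and MAFK at 42.8 stood above JUN at 37.8 in DMSO, where their libraries overlapped; the swaps of FOSL1 with JUND and of FOS with FOSL2 were the same.

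The genes around AP-1 are described by list, and the lists were drawn up with earlier results of these data known. Of 24 immediate early genes outside AP-1, 13 rose and 2 fell, against 23.9% and 24.6% of all tested genes. Their median log2 fold change was 1.26 (0.99 with library totals alone, 0.94 once GC and length were corrected, 0.80 without 7A replicate 2). CCN1, a matrix signalling gene, had 122 and 138 CPM with 7A against 24.5 and 19.3 with DMSO and rose by 2.57 ± 0.17. The MAP kinase phosphatase gene DUSP1 had 127 and 142 CPM with 7A against 31.4 and 27.1 with DMSO (2.20 ± 0.15), and PPP1R15A rose by 3.14 ± 0.18. EGR2 fell by 0.92 ± 0.20, a call that was lost without DMSO replicate 1 (edgeR adjusted p 0.0523); NR4A3 was the other that fell. With the correction for GC and length the falls numbered 1, where 3434 of all tested genes fell. Falls were also fewer without DMSO replicate 1, 7A replicate 1 or DMSO replicate 2, both in the list and over all tested genes. EGR1, the immediate early gene most often read beside FOS and named here after its values were seen, had 508 and 658 CPM with 7A against 600 and 510 CPM with DMSO. These overlap, and the fit gave 0.07 with a 95% interval of -0.31 to 0.45 (edgeR adjusted p 0.739).

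Of 18 other zipper proteins that pair with or compete against FOS, JUN and MAF, 16 were tested. Of these, 5 rose and 4 fell, near the 23.9% and 24.6% of all tested genes. The median was 0.06 (-0.21 with library totals alone, -0.06 with the upper quartile or without DMSO replicate 2). The NRF1 gene NFE2L1, which pairs with small MAFs, had 507 and 450 CPM with 7A against 255 and 208 with DMSO and rose by 1.05 ± 0.15. The AP-1 repressor gene JDP2 rose by 0.93 ± 0.19, lost without DMSO replicate 2 (edgeR adjusted p 0.0529). BACH2, a repressor that pairs with small MAFs, had 4.80 and 4.80 CPM with 7A against 14.9 and 16.2 with DMSO and fell by 1.69 ± 0.18; MAFA fell by 1.17 ± 0.24. The others called, listed after their values were seen, included ATF3, BATF3 and NFE2L3 among rises and BACH1 among falls. Library totals alone gave 3 rises, and rises over all tested genes dropped from 3349 to 1951. Without DMSO replicate 2 or 7A replicate 2, fewer genes were called both in the list and over all tested genes.

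Of 28 MAP kinase pathway and SRF factor genes, 27 were tested. Of these, 7 rose and 9 fell, near the 23.9% and 24.6% of all tested genes. The median was -0.13. That median was -0.39 with library totals alone and above 0 once exon length (0.12) or GC and exon length (0.03) were corrected. SRF, whose protein binds the serum response element of FOS, had 131 and 163 CPM with 7A against 78.4 and 68.5 with DMSO and rose (edgeR adjusted p 0.00246). MAP3K1, an upstream kinase of JNK, had 8.47 and 6.32 CPM with 7A against 20.2 and 23.0 with DMSO and fell by 1.55 ± 0.20. MAP3K4 and RPS6KA2 fell by 1.40 ± 0.20 and 1.09 ± 0.15. The rises dropped to 2 with library totals alone, and those over all tested genes from 3349 to 1951. After the correction for GC and length the falls numbered 6, where 3434 of all tested genes fell. Rises were fewer without either DMSO replicate, and falls without DMSO replicate 2, both in the list and over all tested genes. Kinase activity was not measured.

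Of 37 textbook AP-1 target genes, 29 were tested. Of these, 16 rose and 2 fell, against 23.9% and 24.6% of all tested genes. The median was 0.73 (0.46 with library totals alone). The urokinase gene PLAU, which starts pericellular proteolysis, had 406 and 357 CPM with 7A against 90.3 and 81.3 with DMSO and rose by 2.15 ± 0.13. Its receptor gene PLAUR rose by 1.66 ± 0.15 and the EGFR ligand gene HBEGF by 1.98 ± 0.17. MMP9 and MMP1, the 2 that fell, had at most 1.53 CPM in any library; the MMP9 value of -1.78 ± 0.50 lost its call without 7A replicate 1 (edgeR adjusted p 0.0739), 7A replicate 2 (0.104) or DMSO replicate 2 (0.19), and no target gene was called lower without any one of those 3 libraries. With library totals alone the falls numbered 4, where 4932 of all tested genes fell. Without DMSO replicate 1 the falls were fewer, both in the list and over all tested genes. MMP7, counted among the rises, was as low, with 1.02 and 1.14 CPM with 7A against 0.176 and 0.122 with DMSO. KRT18 stands in this list and among the epithelial markers.

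Of 19 genes under the antioxidant element that small MAF pairs bind, 18 were tested. Of these, 12 rose and 2 fell, against 23.9% and 24.6% of all tested genes. The median was 0.61 (0.34 with library totals alone). HMOX1, which breaks down haem and is held down by BACH1 and small MAFs, had 60.8 and 69.8 CPM with 7A against 20.5 and 18.5 with DMSO (1.74 ± 0.15). ME1 and TXN rose by 1.25 ± 0.14 and 1.02 ± 0.12, and OSGIN1 fell by 0.98 ± 0.15, the other fall being AKR1C1. The median was 0.59 without DMSO replicate 2, where fewer genes were called both in the list and over all tested genes. Without 7A replicate 2 it was 0.61. Not every fall kept its call without 1 of these libraries.

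Among 14 genes that act on AP-1 mRNAs or proteins, 5 rose and 4 fell, not far from the 23.9% and 24.6% of tested genes. The median was -0.02 (-0.29 with library totals alone, 0.13 once GC and length were corrected, 0.06 without 7A replicate 2). ZFP36L1, which speeds decay of AU-rich mRNAs, had 826 and 931 CPM with 7A against 344 and 316 with DMSO (1.41 ± 0.13), and HNRNPD and ELAVL1 rose by 1.15 ± 0.13 and 0.70 ± 0.12. ZFP36L2 and KHSRP were the other rises, and ZFP36 did not pass (edgeR adjusted p 0.21). USP28, GSK3B and SENP2 were among those that fell. FBXW7 and COP1, ligases that mark JUN for destruction, had adjusted p of 0.868 and 0.983 in edgeR. The ligase gene ITCH, in the same list, did not pass either, at -0.95 (95% interval -1.73 to -0.17, edgeR adjusted p 0.0529). Without DMSO replicate 2, fewer genes were called both in the list and over all tested genes.

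**Figure D4:**
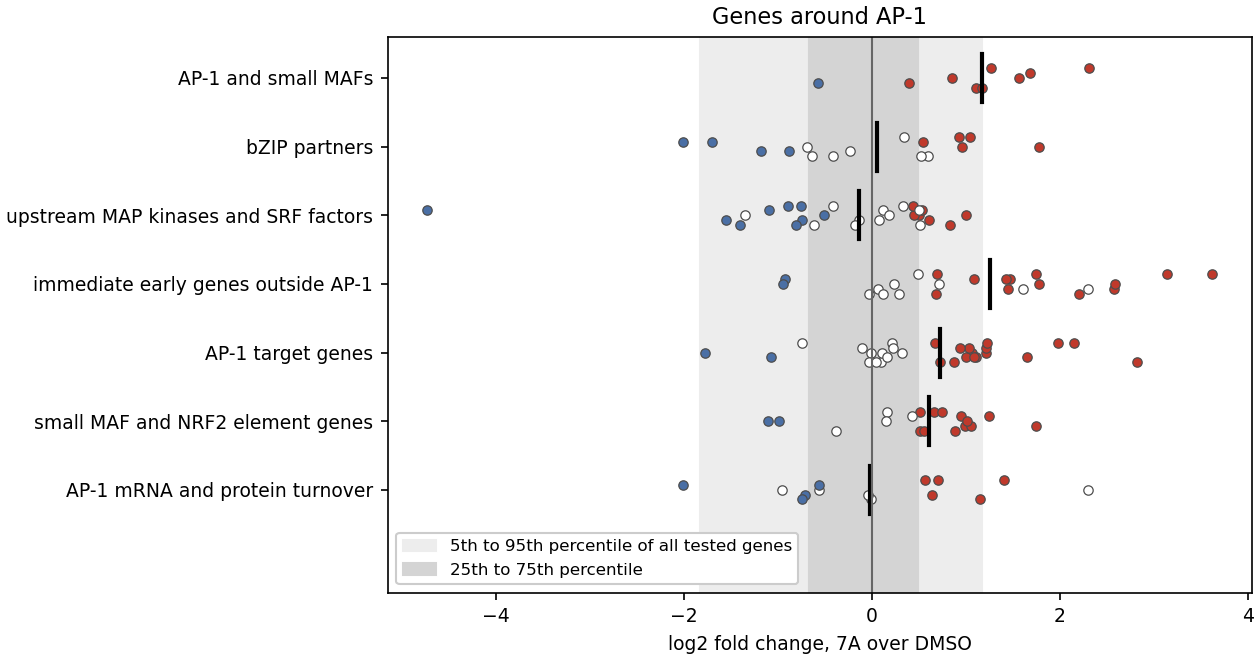
Log2 fold change, 7A over DMSO, of the 9 genes and of 6 lists around them; each point is a tested gene, red or blue when called higher or lower and white when not, and black bars are medians. Grey bands give the spread of all tested genes, whose middle 90% ran from -1.83 to 1.17; the point near -4.7 is MAPK10, with at most 3 counts in a 7A library.

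The genes whose pattern over the 4 libraries lay nearest to that of JUN, among 9746 others with a mean of at least 10 CPM, were U2AF2, ACTG1 and PLAUR, at distances of 0.0495, 0.05 and 0.0534 log2 units (Euclidean, centred log2 CPM). U2AF2, a splicing factor gene, had 399 and 488 CPM with 7A against 144 and 127 with DMSO. PLAUR, already described among AP-1 targets, had 230 and 283 CPM with 7A against 87.1 and 75.6 with DMSO. ACTG1, a cytoplasmic actin gene with near-identical copies in the genome, had 3873 and 4804 CPM with 7A against 1478 and 1263 with DMSO, a level that is uncertain for that reason.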

How the data were processed

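The authors deposited raw counts per gene, whole numbers that are not normalized; the unit was read from the table's name and values. No source used here names the aligner, the counter or the annotation; per the submitters' processing notes the builds hg38, mm10 and GRCm38 are listed without a role, and every identifier is human. Symbols, coordinates, exon length and GC come from GENCODE 29 on GRCh38. Genes passing filterByExpr at a minimum count of 10 were TMM-scaled and fitted by edgeR's quasi-likelihood test (version 4.0.16, R 4.3.3). P-values of all 14026 genes were adjusted by Benjamini-Hochberg and called under 0.05. The standard error is the log2 fold change over the square root of F. The code was tested on simulated data. Of counts from 1 to 20, between 63.9% and 64.9% were even, so counts may not be independent fragments, and intervals cover less than the full error. Counts of the 2 libraries of a group differed by more than counting noise (chi-square over its degrees of freedom 79.4 with 7A and 36.5 with DMSO), so they were not 1 library deposited again; this does not tell separate cultures from technical repeats.

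Alternatives were DESeq2 1.42.0, limma-voom (limma 3.58.1), RLE, upper-quartile and total scaling, 2 other filters, a replicate block, each library left out, corrections for GC and length (splines, 5 degrees of freedom), halved counts, thinning, a threshold of 0.01 and a test against a fold of 1.5. Genes and lists were chosen with earlier results of these data known. From each list up to 4 genes with the smallest adjusted p were named, at least 1 in each direction, plus the 3 nearest to JUN; some named by this rule are not reported here. Python 3.11.15 drew the plots.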

Additional observations from a re-analysis of the deposited data

How the results depend on the processing

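FOS, FOSB, FOSL1, JUN, JUNB, JUND and MAFF kept direction and call in all 19 alternatives run, with log2 fold changes, 7A over DMSO, of 0.85 to 1.16, 1.30 to 1.76, 1.89 to 2.60, 1.40 to 1.82, 0.71 to 1.43, 0.42 to 0.88 and 0.98 to 1.34. FOSL2 ran from -0.84 to -0.44 and lost its call in 3 alternatives, and MAFK from 0.10 to 0.53 and lost it in 13; the cause was not tested. With each library left out, members higher with 7A numbered 7 in every case and members lower 0 to 1; against a fold of 1.5, 7 were higher and 0 lower. Genes called in the whole table were 6795 (3349 higher, 3446 lower), 2589 against a fold of 1.5 (1129 higher, 1460 lower), 3860 at a threshold of 0.01 (2049 higher, 1811 lower) and 3881 to 5710 with a library left out (1914 to 3012 higher, 1967 to 2698 lower). Library totals alone gave 1951 higher and 4932 lower. DESeq2 called 6711 genes and the same numbers of members, 8 higher and 1 lower.

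With replicate number as a block, 6216 genes were called and the MAFK call was lost (0.40, edgeR adjusted p 0.0586); no other member call changed. The deviations of same-numbered libraries correlated at -0.05, so the numbers do not show a pairing. For MAFG, leaving out DMSO replicate 2 turned the value to -0.14, and leaving out DMSO replicate 1 gave 2.18. Measured by longest transcript, FOSL1 held 89.3% of the summed FOS-gene level with 7A and 70.9% with DMSO. Depth limits none of the 9 genes, since the smallest count was 164; 2 libraries per group limit all of them.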

Other observations

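The 2 libraries of a group lay far apart for some transcripts near AP-1, named after their values were seen. MAP2K4, in the MAP kinase list, had 8.60 and 15.5 CPM with 7A against 14.8 and 47.0 CPM with DMSO. The others given here are IER2, ZFP36 and MAFG. IER2, an immediate early gene, had 223 and 204 CPM with 7A against 122 and 18.5 CPM with DMSO, and did not pass (edgeR adjusted p 0.354). ZFP36, which encodes an mRNA decay factor, had 201 and 1119 CPM with 7A against 150 and 117 CPM with DMSO (edgeR adjusted p 0.21). MAFG had 181 and 177 CPM with 7A against 197 and 39.5 CPM with DMSO. With 2 libraries per group, which of a pair is the unusual one cannot be told.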
